A study of Mus musculus with 4 samples.

Results

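The phospholipase A2 genes Pla2g4a, Pla2g4b, Pla2g4c, Pla2g4d, Pla2g4e, Pla2g4f, Pla2g6, Pla2g12a, Pla2g15 and Pla2g16 were examined in motor neuron RNA of mice transgenic for wild-type or G85R SOD1-YFP. These 10 genes were chosen by name from 27189 gene entries. Pla2g4e was included because its RNA was lower in G85R, and the other 9 because they are its relatives, to ask whether they changed as well. All 10 had an entry, 8 under these symbols and 2 under older ones (Lypla3 for Pla2g15 and Hrasls3 for Pla2g16). Where a symbol had more than 1 entry, the one with the highest mean RPKM (reads per kilobase of transcript and sequencing depth) was used.

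RNA-seq was carried out on 4 libraries of laser-captured cell bodies from the ventral horn of the spinal cord, each from 1 mouse aged 3 months. Strain 592 gave the 2 wild-type libraries and strain 737 the 2 G85R libraries. Both strains were made on C57BL/6J x SJL/J and carry a human SOD1 genomic fragment in which the enhanced yellow fluorescent protein (YFP) is fused to SOD1. In strain 737 this fragment has the G85R mutation of familial ALS and is present in many more copies, and these animals later become paralyzed. Mutation, copy number and transgenic strain therefore cannot be told apart. No mice without the transgene were analysed here. Cell bodies were recognized by Azure B staining, and those that stained darkly and held large fluorescent aggregates were not captured, so that the G85R libraries do not represent them. Nothing in the labels ties a given wild-type library to a given G85R library.

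The libraries held an estimated 21560318 to 25186594 reads on genes, and 1 read was worth a median RPKM of 0.0195 to 0.0226. Motor neuron markers were high in all of them, with a sum over 7 markers of 2455 and 2710 RPKM in wild-type, against 2194 and 2558 in G85R, replicate 1 first. Of these, 3 were lower in both G85R libraries and the others overlapped. Among all tested genes, the genotypes did not overlap for 41.2%, in either direction. The 3 were Chat, the choline acetyltransferase gene (66.3, 81.2, 49.6 and 65.5 RPKM in this order), and, named after their values were seen, Mnx1 (17.8, 18.3, 15.1 and 16.8) and Prph (757, 870, 647 and 709). Limma called none of the 7 markers (0.642% of all tested genes were called). The log-linear test called 1, Prph (adjusted p = 0.000518, with 0.538% of the same genes called). RNA of other neurons was present too, with a sum over 4 markers of 145 and 155 RPKM in wild-type, against 167 and 157 in G85R. Of these 4, 1 was higher in both G85R libraries and the others overlapped. Glial RNA was also present. The sum of 6 astrocyte markers was 36.2 and 40.1 RPKM in wild-type replicates 1 and 2 and 124 and 51.6 in G85R replicates 1 and 2, with Gfap at 11.5, 17.1, 91.9 and 28.4. The sum of 9 microglia markers was 16.3, 17.7, 36.1 and 18.7 RPKM in the same order, with C1qa at 3.29, 3.24, 11.0 and 4.14. G85R replicate 1 was thus the library with the most astrocyte and microglia RNA. Of the 6 astrocyte markers only Gfap was higher in both G85R libraries, and the others overlapped. The log-linear test called Gfap (adjusted p = 3.03e-11), while limma did not (adjusted p = 0.212). Of the 9 microglia markers 4 were higher in both, C1qa and, named after their values were seen, C1qb, C1qc and Itgam, and the others overlapped. Sums over 7 oligodendrocyte markers ranged from 812 to 1066 RPKM and overlapped, but Mbp was higher in both G85R libraries (302 and 322 against 412 and 334). Sums over 6 endothelial markers were 8.87 and 9.96 RPKM in wild-type and lower in both G85R libraries (7.88 and 7.49). Cldn5 was also lower in both (5.25 and 6.81 against 4.24 and 4.71). The other markers of these 2 lists overlapped. No marker was at 0 in all libraries.

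Phospholipases A2 cut the fatty acid from the middle position of the glycerol backbone of membrane phospholipids, which releases a free fatty acid, often arachidonic acid, and a lysophospholipid. The group IV enzymes, encoded by Pla2g4a to Pla2g4f, are cytosolic, and most of them bind membranes through a C2 domain in response to calcium. Cytosolic phospholipase A2 epsilon, the product of Pla2g4e, is best known as a calcium-dependent N-acyltransferase. It moves a fatty acid from phosphatidylcholine to the amine of phosphatidylethanolamine, which gives N-acyl phosphatidylethanolamine, the precursor of anandamide and other N-acylethanolamines. The other 4 genes encode more distant enzymes: the calcium-independent Pla2g6, mutated in infantile neuroaxonal dystrophy, the secreted Pla2g12a, the lysosomal Pla2g15, and Pla2g16, a small membrane enzyme abundant in fat.

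The kinship of the 6 group IV genes shows in the coding sequence around the serine that attacks the lipid. The stretch is given for each, 30 bases on the transcript strand from the annotated protein-coding transcripts of NCBIM37 (mm9), with the codon of that serine in capitals.
Pla2g4a: attgctggtcttTCTggatccacatggtac
Pla2g4b: atcacgggggctTCAggatccacctgggca
Pla2g4c: ctcgcaggggtcTCTgggtccacttgggca
Pla2g4d: ttcagtggcatcTCAggctctacatggaca
Pla2g4e: atcaccggcttgTCAggtgcaacctggact
Pla2g4f: ctgagtggggtcTCTgggtcttcctggtgc

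The codons searched for read glycine, any residue, serine, glycine, serine or alanine, serine or threonine, and tryptophan, and 9 of 22594 protein-coding genes (0.04%) have them. The 4 members outside group IV do not. The search admits the residues that the 6 genes carry, so their match to it is not a test of kinship. Pla2g4e differed from Pla2g4b and Pla2g4d at 10 bases each, from Pla2g4c at 13, from Pla2g4a at 14 and from Pla2g4f at 15. In every one of the 6 genes, 1 exon boundary falls within the stretch, and always after base 26. The stretch of Pla2g4e is therefore split by an intron and runs from chr2:120002677-120007178 on the minus strand. The others run over chr2:119864343-119864602 (plus strand) for Pla2g4b, chr2:120101189-120102821 (minus) for Pla2g4d, chr2:120130508-120130763 (minus) for Pla2g4f, chr1:151719887-151727145 (minus) for Pla2g4a and chr7:13915431-13920545 (plus) for Pla2g4c. These likenesses are too short for reads of 75 bases to be shared. No window of 75 bases in the annotated transcripts of any of the 10 genes (4403 windows for Pla2g4e) occurs in another protein-coding gene. Only exact matches in annotated protein-coding transcripts were sought, so pseudogenes and the rest of the genome were not covered. The search also does not show which transcripts an entry counts.

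Pla2g4e RNA was far lower in G85R than in wild-type motor neurons. Its RPKM was 8.67 and 8.84 in wild-type replicates 1 and 2, against 2.25 and 2.02 in G85R replicates 1 and 2. Both G85R values lie well below both wild-type values, while the replicates of each genotype were close to each other. The mean of 2 libraries was 8.76 ± 0.121 RPKM (SD) in wild-type, against 2.14 ± 0.166 in G85R, so the wild-type level was 4.10 times that in G85R. An estimated 1137, 1232, 270 and 257 reads stand behind these values. The log2 difference, G85R minus wild-type, was -1.99 with a standard error of 0.14, on the scale of log2(RPKM + 0.1). Among 11530 tested genes, those that averaged 1 RPKM or more over the libraries, it ranked 23 from the lowest. Because Pla2g4e was chosen for this fall, the values are a description and no test was applied. In RNA of many pooled cells, fewer cells that express a gene and less of its RNA per cell cannot be told apart. Sums of astrocyte, microglia and other neuron markers, given above, were higher in both G85R libraries, through some of the markers only. Chat, Mnx1, Prph and the sum of endothelial markers were lower in both, and Mbp was higher in both. The part of these differences in the result was not tested.

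The gene spans chr2:119992148-120071071 on the minus strand, and its transcript has 4477 bases in 20 exons, 2628 of them coding. The study designed a pair of qRT-PCR assays for it, shown here to place them in the transcript. Primers of set 1 lie in coding exons 2 and 3 and frame 76 bases, and those of set 2 in coding exons 4 and 7, framing 141 bases.
Set 1 forward: agtgaggatcattggcatgaaaa
Set 1 reverse: ccagagggtcacaaagcag
Set 2 forward: aaacccatgtgaagttcccac
Set 2 reverse: cctccaggcaagagacttgg

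Each primer matched the transcript once. The assays thus read the 5′ part of the coding sequence (chr2:120017035-120025992 for set 1 and chr2:120012122-120015171 for set 2), whereas the RPKM is over the whole transcript. The qRT-PCR values were not analysed here.

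Levels of the 10 genes fell into a higher and a lower set. In wild-type motor neurons Pla2g6 (mean 12.96 RPKM) and Pla2g12a (11.7) were the highest, and their values overlapped. Pla2g4e followed as the only group IV gene of comparable level. Pla2g16 (2.83), Pla2g15 (2.47) and Pla2g4b (1.83) came next, each overlapping its neighbour. Pla2g4a, Pla2g4d, Pla2g4f and Pla2g4c were all under 0.2 RPKM. In G85R, Pla2g4e moved from rank 3 to rank 5, behind Pla2g16 and Pla2g15, and its values overlapped those of Pla2g15. The order of the other genes was the same.

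**Figure D1:**
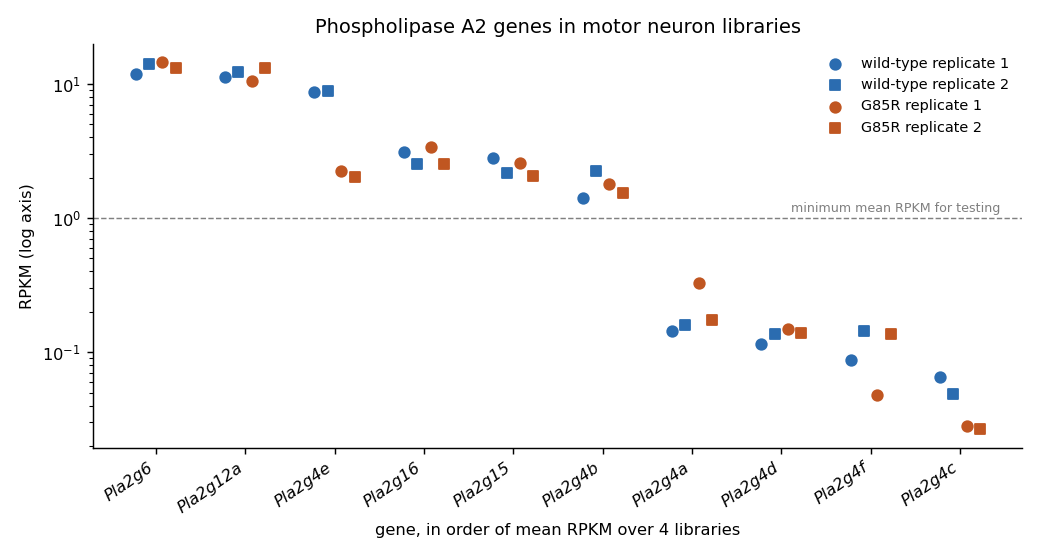
RPKM of each phospholipase A2 gene (log axis) in the 2 wild-type (blue) and 2 G85R (orange) libraries, ordered by mean RPKM; the dashed line marks the minimum mean RPKM of 1 for testing. Pla2g4e sits at 8.67 and 8.84 in wild-type and at 2.25 and 2.02 in G85R, while the other genes above the line overlap between genotypes.

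Pla2g4e made up most of the group IV RNA in wild-type motor neurons and a smaller share in G85R, of a size that depends on which of the 2 entries named Pla2g4b is counted. With the higher entry, its share of the summed group IV RPKM was 82.6% and 76.3% in wild-type, against 48.9% and 50.2% in G85R. The other 5 group IV genes together had 1.82 and 2.75 RPKM in wild-type against 2.36 and 2.01 in G85R, values that overlap, and most of this was the higher Pla2g4b entry, which may not stand for the phospholipase, as described below. With the lower entry, added after seeing the data, the share of Pla2g4e was 94.3% and 92.7% in wild-type against 70.2% and 70.9% in G85R. The other 5 genes then summed to 0.529 and 0.700 RPKM against 0.958 and 0.828, higher in both G85R libraries at levels of few reads. Summed over all 9 relatives with the higher entry, the RPKM was 30.7 and 33.7 in wild-type against 33.1 and 32.7 in G85R, which overlap too. These shares follow from the fall of Pla2g4e and were not tested.

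**Figure D2:**
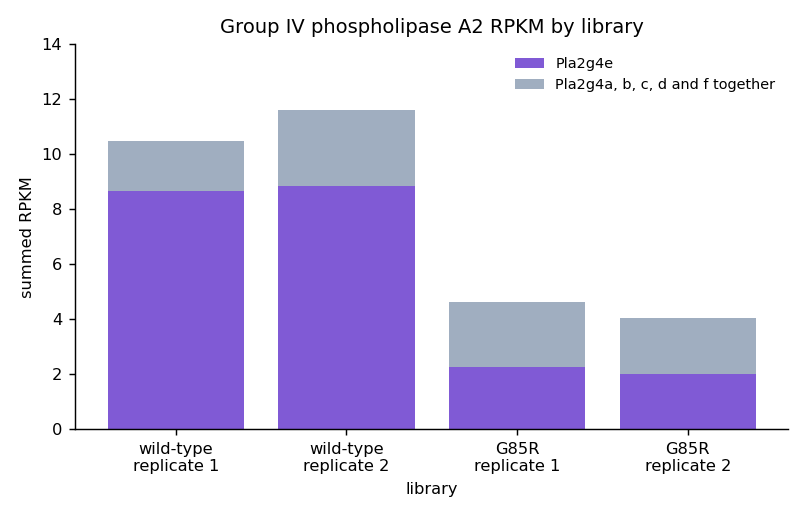
Summed RPKM of the 6 group IV genes in each library, split into Pla2g4e (purple) and the other 5 genes together (grey), with the higher entry of Pla2g4b. The purple part shrinks from 8.67 and 8.84 to 2.25 and 2.02, and the grey part stays between 1.82 and 2.75.

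Of the 9 relatives, 5 reached the minimum mean of 1 RPKM and entered the limma fit over all 11530 genes. None of the 5 was called at an adjusted p under 0.05, against 0.642% of all tested genes (74 of 11530, 0.269% higher and 0.373% lower in G85R). None had an unadjusted p under 0.05 (11.0% of all tested genes, 4.66% higher and 6.37% lower). The log-linear likelihood ratio test takes RPKM, rounded to whole numbers, as counts and can call little at these levels. It called 0 of them (0.538% of the same genes), and 0 had an unadjusted p under 0.05 in it (2.95%). The genotypes did not overlap for 0 of the 5 and for 41.2% of all tested genes.

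Pla2g6, whose product acts without calcium and helps to remodel membrane phospholipids, had 11.8 and 14.1 RPKM in wild-type against 14.4 and 13.1 in G85R. The G85R level was between 0.853 and 1.33 times the wild-type level (95% interval, limma adjusted p = 0.893). Pla2g12a, a secreted enzyme, had 11.2 and 12.1 RPKM against 10.4 and 13.01, with an interval of 0.789 to 1.26 times (limma adjusted p = 0.997). For both of these genes the interval leaves out a fall of the size seen for Pla2g4e, but smaller changes lie within it.

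Pla2g16, encoding a phospholipase that also transfers acyl groups, had 3.13 and 2.52 RPKM in wild-type against 3.36 and 2.52 in G85R (0.740 to 1.45 times, limma adjusted p = 0.966). Pla2g15, the lysosomal phospholipase, had 2.78 and 2.15 RPKM against 2.57 and 2.04 (0.666 to 1.32 times, limma adjusted p = 0.937). In both genes replicate 1 was higher than replicate 2 in each genotype, and the genotypes overlapped.

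Pla2g4b, the nearest of the tested relatives by kinship and position, had 1.41 and 2.26 RPKM in wild-type against 1.80 and 1.53 in G85R (0.608 to 1.44 times, limma adjusted p = 0.946). The direction of this small difference turned when wild-type replicate 2 was left out (log2 difference 0.22 instead of -0.10). A second entry of the same symbol had 0.117 and 0.211 RPKM in wild-type against 0.405 and 0.353 in G85R, from an estimated 10, 19, 31 and 29 reads. There both G85R values were above both wild-type values, at a level too low for the test. The RPKM of 1 read gives a length of about 1287 bases for the higher entry and 2854 for the lower one, while the annotated gene has 3045 coding bases. Which transcripts the higher entry counts is not settled, and its values may not stand for the phospholipase.

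**Figure D3:**
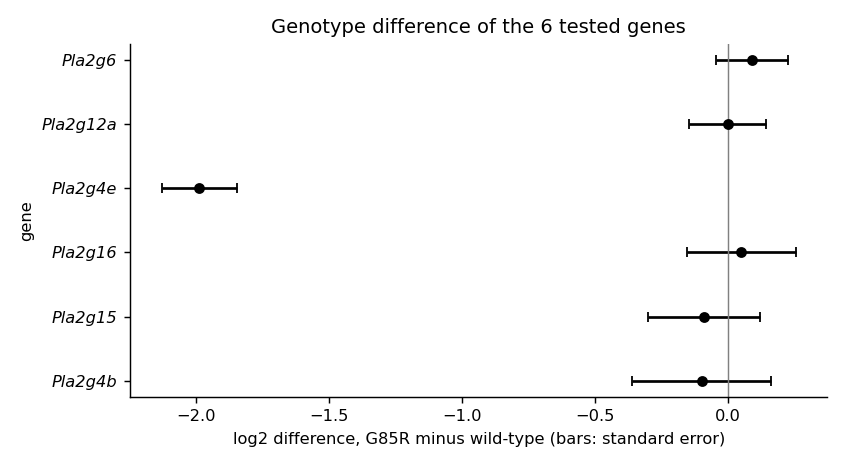
Log2 difference, G85R minus wild-type, of log2(RPKM + 0.1) for the 6 tested genes, with bars of 1 standard error (limma, 2 libraries per genotype). Pla2g4e lies at -1.99 and the other 5 genes between -0.10 and 0.09.

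The other 4 relatives were close to the detection limit. Pla2g4a, the classical cytosolic phospholipase A2 that releases arachidonic acid, had 0.144 and 0.158 RPKM in wild-type against 0.329 and 0.173 in G85R. Both G85R values lay above both wild-type values, from an estimated 12, 14, 25 and 14 reads, and the highest value was that of G85R replicate 1. Pla2g4d had 0.115 and 0.137 RPKM in wild-type against 0.148 and 0.139 in G85R, higher in both G85R libraries at 11, 14, 13 and 13 reads. Pla2g4f had 0.0481 to 0.145 over the 4 libraries, and the genotypes overlapped. Pla2g4c, whose product lacks the C2 domain, had 0.0649 and 0.0488 RPKM in wild-type against 0.0281 and 0.0268 in G85R, only 5, 4, 2 and 2 reads. With no minimum RPKM, Pla2g4c had an unadjusted p of 0.0235 and an adjusted p of 0.577 in limma, and the other 3 genes had adjusted p of 1.00. Differences between genotypes were not detectable in these genes at this depth.

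Pla2g4b, Pla2g4d, Pla2g4e and Pla2g4f are neighbours on chromosome 2, within 123.4 kb of Pla2g4e, so genes on either side were compared as well. Of 71 annotated genes within 1 Mb of Pla2g4e, 46 had an entry and 35 were tested. Of these, limma called 3 (8.57%, against 0.642% of all tested genes), 1 higher and 2 lower in G85R. The genotypes did not overlap for 19 of the 35 (54.3%, against 41.2%), and the median log2 difference was -0.07, against -0.02 for all tested genes.

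The called neighbours were not the closest ones. Exd1, an exonuclease domain gene listed as Exdl1 and 618.8 kb away, had 4.49 and 3.66 RPKM in wild-type against 1.07 and 1.23 in G85R (log2 difference -1.73 ± 0.19 SE, limma adjusted p = 0.0185). Gchfr, the feedback regulator of GTP cyclohydrolase at 994.0 kb, had 4.13 and 4.91 RPKM against 2.02 and 1.85 (-1.18 ± 0.17, limma adjusted p = 0.0465). Ndufaf1, an assembly factor of respiratory complex I at 503.6 kb, had 17.0 and 14.2 RPKM against 33.0 and 28.9 (0.98 ± 0.14, limma adjusted p = 0.0400). All 3 lie on the lower-coordinate side. Over the alternatives, adjusted p ranged from 0.00081 to 1.00 for Exd1, from 0.00364 to 1.00 for Gchfr and from 0.000242 to 0.444 for Ndufaf1. The upper ends for Exd1 and Gchfr are from the log-linear test, which can call little at these RPKM. By quantile normalization Exd1 stayed called (limma adjusted p = 0.0352), while Gchfr (0.0589) and Ndufaf1 (0.0586) did not. Without wild-type replicate 2 the calls of Gchfr (adjusted p = 0.117) and Ndufaf1 (0.0514) were lost, and without G85R replicate 1 that of Ndufaf1 (0.0545). The log-linear test called 0 of the 35 tested neighbours (0.538% of all tested genes), with 2 at an unadjusted p under 0.05 (2.95%).

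The genes closest to the Pla2g4 genes were not called by limma. Ehd4, an endocytic recycling gene 11.8 kb from Pla2g4e, had 15.1 and 16.4 RPKM in wild-type against 14.1 and 15.1 in G85R, which overlap. Vps39, for a subunit of a vacuolar tethering complex and just beyond Pla2g4f, had 18.3 and 19.2 RPKM against 18.2 and 18.7, which overlap. Mapkbp1, which ends beside Pla2g4b, had 2.23 and 2.31 RPKM against 1.93 and 1.60 (log2 difference -0.35 ± 0.19 SE), lower in both G85R libraries. Tmem87a, a membrane protein gene at 110.0 kb singled out after its values were seen, had 27.2 and 27.7 RPKM against 22.9 and 21.8 (-0.30 ± 0.10), also lower in both (limma unadjusted p = 0.0255, adjusted p = 0.370). Within 0.5 Mb of Pla2g4e, 0 of 17 tested genes were called, too few genes to set against the 0.642% of all tested genes. The genotypes did not overlap for 7 of the 17 (41.2%, and 41.2% of all tested genes). Within 2 Mb 5 of 59 tested genes were called (8.47%, against 0.642%), Ell3 and B2m being added, both higher in G85R. There the genotypes did not overlap for 34 (57.6%, against 41.2%). Both of these windows and their genes were chosen after seeing the data.

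**Figure D4:**
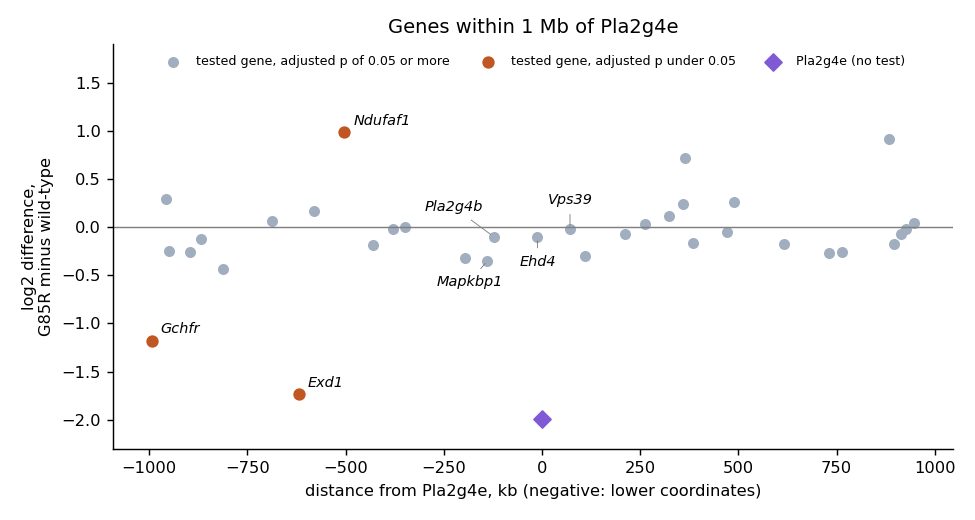
Log2 difference, G85R minus wild-type, against distance from Pla2g4e in kb for the 35 tested neighbours within 1 Mb and for Pla2g4e itself. Exd1 (-1.73), Gchfr (-1.18) and Ndufaf1 (0.98), in orange, are the called neighbours, and the labelled genes beside Pla2g4e lie between -0.35 and -0.02.

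The 5 tested genes whose pattern was most like that of Pla2g4e were found by the Euclidean distance of log2(RPKM + 0.1), centred on the wild-type mean, over the 4 libraries. The closest was Scg5, encoding the neuroendocrine chaperone 7B2, at a distance of 0.149. It had 732 and 657 RPKM in wild-type against 176 and 163 in G85R, a fall of nearly the same ratio (4.10) at a far higher level. Hddc3 (distance 0.448), Exd1 (0.487), Pon3 (0.496) and 1700003M02Rik (0.510) followed. Scg5 is on chromosome 2 as well, 6.32 Mb from Pla2g4e, and Hddc3, Pon3 and 1700003M02Rik are on chromosomes 7, 6 and 4. The likeness rests on 4 libraries only, and the genotype contrast dominates it.

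Genes of the surrounding pathways were taken from 5 lists, 104 genes of which 102 had an entry. Of the 65 that were tested, limma called 1, Alox8 (0.642% of all tested genes were called). The medians of the lists lay between -0.18 and 0.02 (log2 difference). Over all tested genes the median was -0.02.

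Among other phospholipases A2 and related lipases, 12 of 24 were tested and 0 called by limma (0.642% of all tested genes). At an unadjusted p under 0.05, 1 was higher (4.66% of all tested genes) and 1 lower (6.37%), and the median log2 difference was -0.00. Both are named after their values were seen. The higher was Pnpla3 (2.39 and 2.83 RPKM in wild-type, 4.67 and 3.68 in G85R, limma adjusted p = 0.250). The lower was Pla2g3, for a secreted enzyme (17.8 and 20.4 against 12.0 and 15.4, limma adjusted p = 0.314). The most abundant were Pla2g7, which degrades platelet-activating factor (189 and 175 RPKM in wild-type, 190 and 182 in G85R), Pafah1b1, the lissencephaly gene (162 and 160 against 147 and 161), and Pafah1b2, a catalytic partner of its product (92.9 and 92.2 against 84.5 and 93.3). All 3 overlapped between genotypes. The 4 genes listed at 0 in every library, named after their values were seen, were Pla2g1b, Pla2g2a, Pla2g2f and Pla2g12b, all for secreted enzymes.

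The next list holds genes that make, degrade or sense N-acylethanolamines, which derive from the product of the Pla2g4e reaction, and the other endocannabinoid 2-arachidonoylglycerol, which comes from diacylglycerol. Of 20 genes, 11 were tested and 0 called by limma (0.642% of all tested genes), with 1 lower at an unadjusted p under 0.05 (6.37%). Abhd12, a lysophospholipase and 2-arachidonoylglycerol hydrolase, had 288 and 298 RPKM in wild-type against 284 and 312 in G85R. Gde1, a phosphodiesterase in an alternative route to anandamide, had 78.8 and 83.7 RPKM against 94.7 and 91.5, above wild-type in both libraries (limma adjusted p = 0.530). Abhd6, another monoacylglycerol hydrolase, had 35.5 and 37.3 RPKM against 35.6 and 35.5. The gene at the unadjusted p, singled out after its values were seen, was Dagla, a diacylglycerol lipase that makes 2-arachidonoylglycerol. It had 13.1 and 13.99 RPKM in wild-type against 7.52 and 9.43 in G85R (limma adjusted p = 0.127).

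Of 30 genes for the synthesis and receptors of eicosanoids, which are made from released arachidonic acid, 15 were tested, 0 were called higher and 1 lower (0.373% of all tested genes were called lower). The called gene was Alox8, an arachidonate lipoxygenase, with 2.55 and 3.71 RPKM in wild-type against 0.904 and 0.997 in G85R (log2 difference -1.60 ± 0.24 SE, limma adjusted p = 0.0480). Its mean was 3.13 RPKM in wild-type and 0.950 in G85R, so it reached the minimum mean of 1 only through its wild-type level. A gene that enters this way can hardly be called higher. Its adjusted p ranged from 0.00206 to 1.00 over the alternatives, the upper end being from the log-linear test, which can call little at this RPKM. In limma the call was lost after quantile normalization (adjusted p = 0.0696), by median ratio (0.0516), without trend (0.0550) and with no minimum RPKM (0.477). It was kept with the other pseudocounts, a minimum of 0.1 RPKM, 1 read added or a replicate block. The log2 difference was -1.34 without wild-type replicate 2. Ptgis, the prostacyclin synthase gene, was singled out after its values were seen and had 3.22 and 3.20 RPKM against 0.471 and 1.07 (-2.02 ± 0.34, limma adjusted p = 0.0690). It too was tested only through its wild-type level, with a G85R mean of 0.769 RPKM. The median log2 difference of the list was -0.18, with 3 genes lower (6.37% of all tested genes) and 0 higher (4.66%) at an unadjusted p under 0.05 in limma.

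For the reuse of lysophospholipids and fatty acids, 19 of 21 genes were tested and 0 called by limma (0.642% of all tested genes), with a median of -0.04. At an unadjusted p under 0.05, 1 was higher (4.66%) and 0 lower (6.37%). The acyltransferase gene Lpcat4 had 116 and 117 RPKM in wild-type against 114 and 108 in G85R, Lypla2, a thioesterase gene, 111 and 122 against 125 and 113, and Acsl6, which activates fatty acids, 82.1 and 83.2 against 81.4 and 85.6. Lpcat4 was slightly lower in both G85R libraries and the others overlapped. Of 9 kinases and annexins that act on cytosolic phospholipase A2, 8 were tested and 0 called by limma (0.642%), with 0 at an unadjusted p under 0.05 (11.0%), while the log-linear test called 0 (0.538%) and had 1, S100a10, at an unadjusted p under 0.05 (2.95%). Anxa2 (241 and 261 RPKM in wild-type, 250 and 266 in G85R), S100a10 (289 and 246 against 300 and 305) and Anxa5 (162 and 148 against 164 and 178), encoding calcium-dependent membrane binders and a partner of annexin A2, were the most abundant. S100a10 and Anxa5 were above wild-type in both G85R libraries, and neither was called (limma adjusted p = 0.624 and 0.702).

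**Figure D5:**
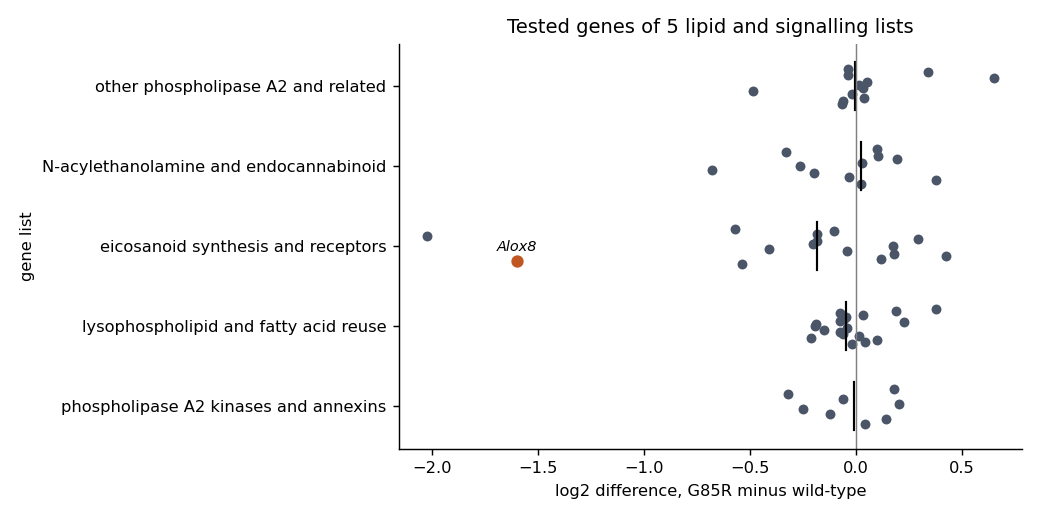
Log2 difference, G85R minus wild-type, of each tested gene in the 5 lists (points; vertical position within a list only separates them), with the list median as a short line and the called gene in orange. Medians lie between -0.18 and 0.02, and Alox8 is at -1.60.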

How the data were processed

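RPKM values deposited by the authors were used for 27189 UCSC gene clusters in 4 libraries. The authors mapped 75-base single-end reads with Bowtie 0.12.3 to mm9 and splice junctions and quantified them with Cufflinks. A second deposited RPKM has 1 read added. The difference between both gives the RPKM of 1 read and estimated reads, which are not exact since Cufflinks divides reads among isoforms.

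Genotypes were compared, 2 against 2, with limma 3.58.1 (R 4.3.3, eBayes with trend) on log2(RPKM + 0.1). The 11530 genes that averaged 1 RPKM or more over the libraries were tested, with Benjamini-Hochberg adjustment over all of them. Each library is from a separate mouse. The study's log-linear likelihood ratio test was an alternative. The members and lists were chosen with earlier results of these data known. Named genes were the 10 members, each list's called genes or else its 3 most abundant, the called and nearest genes within 1 Mb, the 5 most alike and 5 markers, and any others are said to be chosen after their values were seen. Positions and transcripts are from the GENCODE annotation of NCBIM37, and primer sequences from the study's primer list. Napepld and Naaa had no entry. Summaries used Python 3.11.15, numpy 2.4.6 and pandas 2.3.3, and plots were drawn with matplotlib 3.10.9.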

Additional observations from a re-analysis of the deposited data

How the results depend on the processing

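The log2 difference of Pla2g4e was negative in all 15 alternatives. It was -1.64 with a pseudocount of 1, -2.12 in the log-linear model (on RPKM rounded to whole numbers), and -2.06 to -1.91 when each library was left out. None of the 5 tested relatives was called under any of the 15 (a minimum RPKM of 5 leaves out some of them), but the sign of their small differences was not stable. Pla2g4b was at 0.39 in the log-linear model, where rounding to whole numbers is coarse at its low RPKM. It ranged from -0.42 without wild-type replicate 1 to 0.22 without wild-type replicate 2 (0.013 without G85R replicate 2). Pla2g12a was at 0.021 by median ratio, 0.026 by quantile normalization, and from -0.16 to 0.16 with 1 library left out. With 1 library left out, Pla2g6 ranged from -0.038 to 0.22, Pla2g15 from -0.27 to 0.086 and Pla2g16 from -0.15 to 0.25. The causes were not tested.

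Called genes numbered 17 with a minimum RPKM of 5, 112 with none, 39 by quantile normalization, 49 without trend, and 78 to 188 with 1 library left out, the highest without G85R replicate 2. In the 5 lists, 2 were called with a pseudocount of 1, 0 with a minimum of 5, by median ratio, by quantile normalization, without trend or by the log-linear test, and 0 to 3 with 1 library left out. Within 1 Mb of Pla2g4e, 0 were called with a minimum of 5, with none, or by the log-linear test, 1 by quantile normalization or without trend, and 1 to 4 with 1 library left out, the lowest without wild-type replicate 2. A minimum of 5 leaves Exd1 and Gchfr untested, and the log-linear test can call little at their levels. The main fit tested 11530 genes, 65 in the lists and 35 within 1 Mb. With a minimum of 5 these were 7849, 47 and 21, and with none 27189, 102 and 46. Over all genes, 80 were called with a pseudocount of 1, 66 by median ratio and 62 by the log-linear test. The windows of 0.5 Mb (0) and 2 Mb (5), and the lower Pla2g4b entry, were chosen after seeing the data. A fit that leaves out a library takes the lone one to vary like the other genotype.

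Replicate numbers do not state a pairing. Same-numbered libraries deviated together with r = 0.22 over genes, a single value since deviations within a genotype mirror each other. With a replicate block, limma called 527 of 11530 genes, 5 of 65 in the lists, 6 of 35 within 1 Mb and 0 of 5 relatives.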
